A study of Mus musculus with 6 samples.

Results

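A set of 10 genes that mark fibroblasts and myofibroblasts was followed in cultures of a mouse spermatogonial stem cell line: the growth factor receptors Pdgfra and Pdgfrb, the transcription factors Twist1 and Prrx1, the contractile genes Acta2 and Tagln, and the secreted and matrix genes Fstl1, Postn, Loxl1 and Fbn1. The genes were chosen by name, and all 10 were found among the 31384 genes of the count table. All 10 were also among the 16121 genes with enough counts to be tested, with no fewer than 27 counts in any library.

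The LOVA group received 5 uM lovastatin, a statin that inhibits HMG-CoA reductase, and no GDNF. The NTC group received neither lovastatin nor GDNF, and the PTC group received 10 ng/mL GDNF. GDNF is the growth factor on which cultured spermatogonial stem cells are usually kept. All 3 groups grew on feeders, which were mouse embryonic fibroblasts (MEF) arrested with mitomycin C, and all media held EGF, LIF and FGF2. Cells were collected after 18 days, and each group had 2 libraries. The labels give neither the strain behind the cell line nor its number of clones. Whether 2 libraries of a group are 2 cultures or 1 culture sampled again is not stated, so p-values measure only the spread between these libraries. The labels also leave out whether feeders were removed before RNA was taken, and no library of feeders alone was analysed here.

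Fibroblasts of most mouse tissues carry the PDGF receptors, tyrosine kinases of the cell surface that bind PDGF dimers. Twist1 and Prrx1 are transcription factors of embryonic mesenchyme and of activated fibroblasts. When fibroblasts turn into myofibroblasts, commonly under TGF-beta and mechanical tension, they build actin stress fibres, for which Acta2 and Tagln are the usual markers, and secrete matrix proteins such as periostin and fibrillin. The nuclear factor SRF and its cofactors drive many of the contractile genes. Spermatogonia are germ cells and are not a usual source of these transcripts.

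The libraries held between 12454671 and 22668087 counts. Levels are given as CPM, read counts relative to a TMM-scaled library size, a normalisation that takes most genes as unchanged. Before any comparison, the libraries of a group stood apart from each other for these genes. Library B exceeded library A for each of the 10 genes in each group, by 1.58-fold to 2.46-fold in LOVA, by 1.40-fold to 2.19-fold in NTC and by 2.32-fold (Twist1) to 10.6-fold (Acta2) in PTC. The 10 genes together took 0.310% and 0.624% of the counts in LOVA A and B and 0.359% and 0.585% in NTC A and B, against 0.0244% and 0.103% in PTC A and B. In bulk RNA, fewer fibroblasts and less of a transcript per fibroblast cannot be told apart.

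A second set of 12 fibroblast genes, called the fibroblast reference genes here, with collagens I, III, V and VI, Dcn, Lum, Mmp2, Thy1 and Ddr2, followed the same order. It took 1.10% and 2.04% of the counts in LOVA and 1.20% and 1.97% in NTC, against 0.0918% and 0.450% in PTC. Calls here are at an adjusted p under 0.05 in edgeR. Among all genes tested, 21.5% were called higher and 12.9% lower in NTC against PTC, and 19.8% and 10.8% in LOVA against PTC. Of the 12 reference genes, 6 rose in NTC over PTC and 6 in LOVA over PTC, and none fell. The 17 pan-germ-cell markers ran the other way, with 0.380% and 0.196% in LOVA and 0.326% and 0.206% in NTC, against 0.568% and 0.569% in PTC, and 9 of them fell in NTC against PTC and 6 in LOVA against PTC. Germ cell transcripts such as Ddx4, which encodes an RNA helicase of the germ line, averaged 276 CPM in LOVA and 222 CPM in NTC, against 420 CPM in PTC, so both germ cell and fibroblast transcripts were present in every group. The part of the feeder fraction in the differences below was not tested by any direct count of cells.

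**Figure D1:**
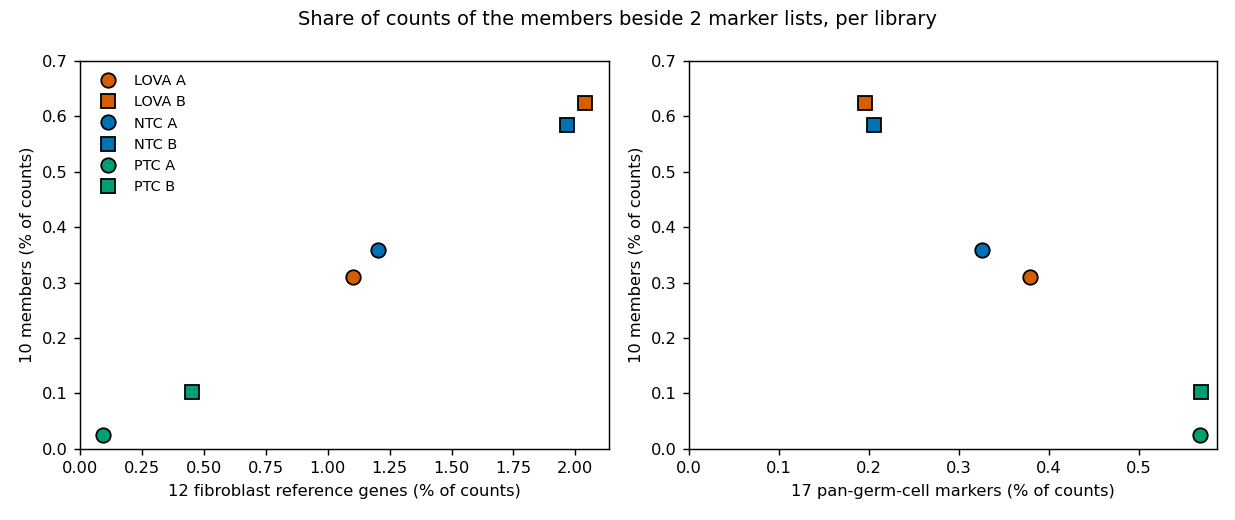
Share of each library's counts taken by the 10 fibroblast and myofibroblast genes (y axis, percent) against the share taken by 12 fibroblast reference genes (left) and by 17 pan-germ-cell markers (right). Each point is 1 library of LOVA, NTC or PTC, circles for A and squares for B; the PTC libraries hold 0.0244% and 0.103% and lie below the other 4 libraries.

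Without GDNF, 9 of the 10 genes rose in NTC against PTC (adjusted p under 0.05 in edgeR's quasi-likelihood test) and none fell. None of the 10 was called when the 12 fibroblast reference genes set the library scale. That scaling takes out the difference shared with the reference genes, and it raised the SE, for Pdgfra from 0.59 to 1.21. Over all 16121 genes tested, 21.5% were called higher in NTC and 12.9% lower. The median log2 fold change was 3.16 over the 10 genes and -0.02 over all genes tested. Both NTC libraries lay above both PTC libraries for all 10 genes, as they did for 39.0% of all genes tested. The count of 9 rested on the spread shared by all 6 libraries. It was 1 (Pdgfra) when only the NTC and PTC libraries were fitted, 0 without NTC B, 1 without LOVA A or without LOVA B, 4 without NTC A or without PTC A, and 10 without PTC B.

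With lovastatin in place of GDNF, 8 of the 10 genes rose against PTC and none fell. Again none of the 10 was called when the fibroblast reference genes set the scale, with the same limit. Over all genes tested, 19.8% were called higher in LOVA and 10.8% lower. This comparison uses the same PTC libraries as the one above, so the 2 are not independent. The median log2 fold change was 2.92 over the 10 genes and 0.00 over all genes tested. Both LOVA libraries lay above both PTC libraries for all 10 genes, as for 38.4% of all genes tested. The count was 5 with only the LOVA and PTC libraries, 2 without LOVA A, 0 without LOVA B, 4 without NTC A, 2 without NTC B, 0 without PTC A and 10 without PTC B.

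Lovastatin against no GDNF gave no call among the 10 genes, nor among all genes tested (0.0% higher and 0.0% lower by edgeR). At an unadjusted p under 0.05 there were 561 genes, and DESeq2 called 120 genes and limma-voom 4, none of the 10 among them. The median log2 fold change of the 10 genes was -0.08, with 5 above 0 and 5 below. The LOVA and NTC libraries overlapped for each of the 10 genes, while 25.6% of all genes tested did not overlap. The 95% intervals were wide, from -2.70 to 1.70 log2 units for Acta2 and from -0.99 to 1.04 for Twist1, so the p-values do not show that LOVA and NTC were alike.

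**Figure D2:**
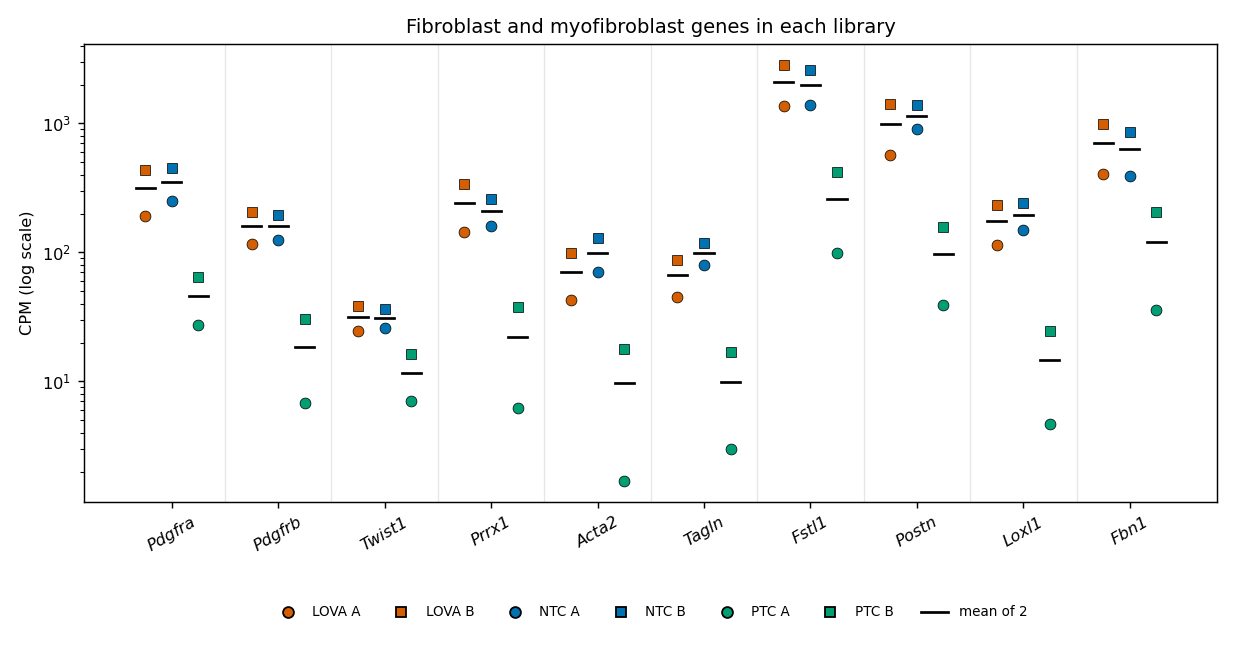
CPM (log scale) of each of the 10 genes in the 2 libraries of LOVA, NTC and PTC, circles for A and squares for B; black bars are means of 2 libraries. Each gene has both PTC points below the 4 others, and PTC B lies above PTC A.

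Pdgfra (ENSMUSG00000029231, chromosome 5, 75152292 to 75198215 on the plus strand of mm10) encodes the PDGF receptor alpha, the receptor that marks most fibroblasts. It had 191.4 and 435.0 CPM in LOVA and 250.9 and 450.0 CPM in NTC, against 27.3 and 64.2 CPM in PTC. It rose 7.65-fold in NTC over PTC (log2 2.94, SE 0.59, adjusted p = 0.0172) and 6.83-fold in LOVA over PTC (log2 2.77, SE 0.59, adjusted p = 0.0234). In CPM the 4 libraries without GDNF all lay well above both with it. When scaled to the fibroblast reference genes, the log2 values turned to -0.13 and -0.30, against medians of -3.39 and -3.30 over all genes tested. LOVA minus NTC was -0.16 on the log2 scale, with a 95% interval of -1.49 to 1.16.

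Pdgfrb (ENSMUSG00000024620, chromosome 18, 61045150 to 61085061, plus strand) encodes the beta receptor, found on fibroblasts and on pericytes. It had 116 and 204 CPM in LOVA and 124 and 195 CPM in NTC, against 6.77 and 30.3 CPM in PTC. PTC A was the lowest library by a wide margin, and the LOVA and NTC values were nearly the same. Pdgfrb rose 8.54-fold in NTC over PTC (log2 3.09, SE 0.71, adjusted p = 0.0229) and 8.55-fold in LOVA over PTC (log2 3.10, SE 0.71, adjusted p = 0.0265). The LOVA minus NTC difference was 0.00, with an interval of -1.57 to 1.58. Counts of Pdgfra per count of Pdgfrb were 1.65 and 2.13 in LOVA and 2.02 and 2.31 in NTC, against 4.03 and 2.12 in PTC. The 2 receptors thus kept a similar proportion in 5 libraries, and PTC A stood apart.

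The ligands of these receptors did not move together. Pdgfc and Pdgfd, which encode the PDGF-C and PDGF-D chains, rose in NTC over PTC by 3.66 (SE 0.53, adjusted p = 0.00957) and 3.16 (SE 0.78, adjusted p = 0.0269) on the log2 scale. Pdgfb, which encodes the B chain, fell by 1.59 (SE 0.34, adjusted p = 0.0181), averaging 18.7 CPM in LOVA and 15.8 CPM in NTC, against 47.5 CPM in PTC. Pdgfa, the A chain, was not called, at -0.38 (adjusted p = 0.327). In LOVA over PTC, the same 3 ligands passed with log2 values of 2.97 for Pdgfc, 3.15 for Pdgfd and -1.35 for Pdgfb. No ligand was called in LOVA against NTC.

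Twist1 (ENSMUSG00000035799, chromosome 12, 33957671 to 33959829, plus strand) encodes a basic helix-loop-helix factor that binds E-boxes and is needed for mouse head mesenchyme. It had 24.4 and 38.6 CPM in LOVA and 25.7 and 36.1 CPM in NTC, against 7.02 and 16.3 CPM in PTC. Twist1 rose 2.64-fold in NTC over PTC (log2 1.40, SE 0.44, adjusted p = 0.0466) and 2.69-fold in LOVA over PTC (log2 1.43, SE 0.44, adjusted p = 0.0483). On the CPM scale these were the smallest changes among the 10 genes, and both adjusted p-values lay close to the threshold. When scaled to the fibroblast reference genes, the log2 values turned to -1.61 and -1.55. The medians of all genes tested were then lower still, at -3.39 and -3.30. No test was made of Twist1 against the other 9 genes. Between LOVA and NTC the log2 difference was 0.03, with an interval of -0.99 to 1.04.

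Prrx1 (ENSMUSG00000026586, chromosome 1, 163245119 to 163313710, minus strand) encodes a paired-type homeobox factor of limb and craniofacial mesenchyme. It had 145 and 340 CPM in LOVA and 160 and 259 CPM in NTC, against 6.21 and 37.9 CPM in PTC. The 2 PTC libraries differed 6.10-fold. Prrx1 rose 9.42-fold in NTC over PTC (log2 3.24, SE 0.86, adjusted p = 0.0331) and 10.9-fold in LOVA over PTC (log2 3.45, SE 0.87, adjusted p = 0.0322). Set against NTC, LOVA differed by 0.21, with an interval of -1.70 to 2.12.

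The proportion of these factors differed between the groups. Counts of Twist1 per count of Prrx1 were 0.168 and 0.114 in LOVA and 0.161 and 0.140 in NTC, against 1.13 and 0.430 in PTC. Both PTC libraries lay above the 4 others, and the ratio has no test. Among 16 other mesenchymal transcription factors, 14 rose and 1 fell in NTC over PTC, and 12 rose and 1 fell in LOVA over PTC. Per fibroblast reference count, 5 lay above PTC and 5 below it, without overlap, in each comparison. Of all genes tested, 3.39% lay above and 84.7% below in NTC, and 3.0% and 85.2% in LOVA. On the CPM scale the median log2 fold change of the 16 in NTC over PTC was 2.65, against -0.02 over all genes tested. Tbx15, a T-box factor, rose by 2.99 on the log2 scale (SE 0.72, adjusted p = 0.0254). Zeb1, a zinc finger factor of epithelial to mesenchymal transition, rose by 1.02 (SE 0.30, adjusted p = 0.0406). Foxf1, a forkhead factor of visceral mesoderm, was the gene that fell, by 1.18 (SE 0.17, adjusted p = 0.00920), averaging 64.3 CPM in LOVA and 58.1 CPM in NTC, against 132 CPM in PTC. The paralogs Twist2 and Prrx2 were among those that rose, by 2.51 (adjusted p = 0.0459) and 1.61 (adjusted p = 0.0171).

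Acta2 (ENSMUSG00000035783, chromosome 19, 34241090 to 34255590, minus strand) encodes smooth muscle alpha actin, the protein most used to define myofibroblasts. It had 42.7 and 98.4 CPM in LOVA and 70.3 and 129 CPM in NTC, against 1.69 and 17.9 CPM in PTC. The PTC values rest on 27 counts in A and 419 counts in B, the widest gap between libraries of a group among the 10 genes. Acta2 rose 10.0-fold in NTC over PTC (log2 3.32, SE 1.00, adjusted p = 0.0455). The difference did not pass the test in LOVA over PTC (log2 2.83, SE 0.98, interval 0.45 to 5.20, adjusted p = 0.0709), though the libraries did not overlap. The difference of LOVA from NTC was -0.50, with an interval of -2.70 to 1.70.

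Reads of Acta2 can be shared with near-identical actin genes, and how such reads were assigned is not given in the sources used here. Actg2, the enteric smooth muscle actin, was at 0.71 and 3.10 CPM in LOVA and 2.07 and 3.61 CPM in NTC, against no count and 1.11 CPM in PTC, where 3 counts would be 0.188 CPM in PTC A. Acta1 and Actc1, the skeletal and cardiac actins, had at most 30 and 75 counts in any library and were not tested. The 75 counts of Actc1 were in PTC B, where Acta2 had 419 counts.

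Tagln (ENSMUSG00000032085, chromosome 9, 45929619 to 45936058, minus strand) encodes transgelin, also called SM22 alpha, an actin-binding protein of smooth muscle and myofibroblasts. It had 45.5 and 88.0 CPM in LOVA and 79.6 and 119 CPM in NTC, against 3.01 and 16.8 CPM in PTC. Tagln rose 9.87-fold in NTC over PTC (log2 3.30, SE 0.78, adjusted p = 0.0244) and 6.64-fold in LOVA over PTC (log2 2.73, SE 0.76, adjusted p = 0.0410). LOVA minus NTC was -0.57, with an interval of -2.29 to 1.15, the lowest value among the 10 genes. Exons of Tagln overlap Pcsk7 and Gm48529 on the opposite strand, which had 1872 and 165 counts over all 6 libraries. The library kit keeps strand, but whether counting used it is not given in the sources used here.

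Of 16 other contractile genes, 9 rose and none fell in NTC over PTC, and 9 rose and none fell in LOVA over PTC. Per fibroblast reference count, none lay above PTC and 9 lay below it, without overlap, in each comparison. On that scale most genes lay below PTC, 84.7% of all genes tested in NTC and 85.2% in LOVA. The median of the 16 on the CPM scale was 1.76 in NTC over PTC, below the 3.32 and 3.30 of Acta2 and Tagln. The tropomyosins Tpm4 and Tpm1, which coat actin filaments, rose by 2.84 (SE 0.50, adjusted p = 0.0134) and 2.23 (SE 0.34, adjusted p = 0.0101) in NTC over PTC. Actn1, the filament cross-linker alpha-actinin, rose by 1.34 (SE 0.35, adjusted p = 0.0286). In LOVA minus NTC, 10 of the 16 were negative, with a median of -0.15 and no call. Myh11, the smooth muscle myosin heavy chain, was at 1.00 and 4.73 CPM in LOVA and 3.27 and 4.96 CPM in NTC, against 2.38 and 2.73 CPM in PTC, and was not called.

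Smooth muscle cells and pericytes also express Acta2, Tagln and Pdgfrb. The 8 markers of those cells together took 0.0298% and 0.0188% of the counts in LOVA and 0.0287% and 0.0221% in NTC. In PTC they took 0.0494% and 0.0442%, so the sum ran in the reverse of the order of Acta2 and Tagln. Most of that sum was Mcam, an adhesion molecule, which fell by 1.09 in NTC over PTC (SE 0.33, adjusted p = 0.0412) and averaged 186 CPM in LOVA and 202 CPM in NTC, against 431 CPM in PTC. Of the 8, 4 rose and 1 fell in NTC over PTC, and 3 rose and 1 fell in LOVA over PTC. Gene by gene, 6 of the 8 lay above 0 and 2 below in each comparison, with median log2 fold changes of 1.56 and 1.96. On the CPM scale most of the 8 thus ran in the direction of Acta2 and Tagln. Notch3 and Des, a receptor and an intermediate filament of mural cells, rose by 1.88 and 2.69 in NTC over PTC. Per fibroblast reference count, 0 of the 8 lay above PTC in either comparison, and 5 lay below in NTC and 4 in LOVA, without overlap. Of all genes tested, 84.7% lay below in NTC and 85.2% in LOVA. Acta2 and Tagln lay above PTC in NTC on that scale. Rgs5, Kcnj8 and Abcc9 had no more than 2.84 CPM in any library. Their part in the Acta2 and Tagln values was not tested.

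Of SRF and its cofactors, none was called higher in NTC over PTC. Srf was at 74.1 and 67.1 CPM in LOVA and 71.4 and 63.4 CPM in NTC, against 92.1 and 83.9 CPM in PTC, and was not called (NTC minus PTC -0.39, adjusted p = 0.116). Of its cofactors, Mrtfb fell by 0.80 (SE 0.18, adjusted p = 0.0206), Mrtfa was not called (-0.39, adjusted p = 0.124), and Myocd had at most 6 counts in a library and was not tested. In the TGF-beta list, 6 of 11 genes rose in NTC over PTC and 5 in LOVA over PTC, and none fell. Per fibroblast reference count, 2 lay above PTC and 7 below it, without overlap, in each comparison. The shares of all genes tested were 3.39% above and 84.7% below in NTC, and 3.0% and 85.2% in LOVA. On the CPM scale the receptors Tgfbr2, Tgfbr3 and Tgfbr1 rose by 3.16, 2.70 and 1.04 in NTC over PTC (adjusted p = 0.0219, 0.0237 and 0.0458). The ligands Tgfb3 and Tgfb2 rose by 3.68 and 3.12 (adjusted p = 0.0121 and 0.0199), and Tgfb1 by 0.83 (adjusted p = 0.0400).

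Fstl1 (ENSMUSG00000022816, chromosome 16, 37776873 to 37836514, plus strand) encodes a secreted glycoprotein of the SPARC family that mesenchymal cells release. It had 1365 and 2845 CPM in LOVA and 1396 and 2575 CPM in NTC, against 98.1 and 423 CPM in PTC. Fstl1 rose 7.62-fold in NTC over PTC (log2 2.93, SE 0.75, adjusted p = 0.0302) and 8.07-fold in LOVA over PTC (log2 3.01, SE 0.76, adjusted p = 0.0318). The LOVA minus NTC difference was 0.08, with an interval of -1.61 to 1.78. Per kilobase of annotated exon it was the most abundant of the 10 genes, at 428 CPM per kb in LOVA, 404 in NTC and 53.0 in PTC, and both its libraries lay above both of the next gene, Postn, in each group.

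Postn (ENSMUSG00000027750, chromosome 3, 54361109 to 54391037, plus strand) encodes periostin, a matricellular protein of collagen-rich and healing tissue. It had 573 and 1411 CPM in LOVA and 909 and 1387 CPM in NTC, against 39.1 and 157 CPM in PTC. LOVA A lay well below both NTC libraries, and LOVA B just above them. Postn rose 11.7-fold in NTC over PTC (log2 3.55, SE 0.76, adjusted p = 0.0199) and 10.1-fold in LOVA over PTC (log2 3.34, SE 0.75, adjusted p = 0.0260). Between LOVA and NTC the log2 difference was -0.21, with an interval of -1.88 to 1.46.

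Among 11 other matricellular genes, 9 rose in NTC over PTC and 8 in LOVA over PTC, and none fell. Over all genes tested, 21.5% were called higher in NTC over PTC and 19.8% in LOVA over PTC. Fn1, which encodes fibronectin, averaged 4151 CPM in LOVA and 4339 CPM in NTC, against 823 CPM in PTC, a rise of 2.40 in NTC over PTC (SE 0.62, adjusted p = 0.0303). Sparc, a relative of Fstl1, and Thbs2, a thrombospondin, rose by 3.13 and 3.46 (adjusted p = 0.0236 and 0.0255). In LOVA minus NTC, 10 of the 11 were negative with a median of -0.19, and none was called.

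Loxl1 (ENSMUSG00000032334, chromosome 9, 58287738 to 58313186, minus strand) encodes a lysyl oxidase that cross-links elastin. It had 114 and 233 CPM in LOVA and 150 and 243 CPM in NTC, against 4.64 and 24.5 CPM in PTC. Its rise was the largest of the 10 genes, at 13.3-fold in NTC over PTC (log2 3.74, SE 0.80, adjusted p = 0.0200) and 11.8-fold in LOVA over PTC (log2 3.56, SE 0.80, adjusted p = 0.0257). Set against NTC, LOVA differed by -0.18, with an interval of -1.91 to 1.56.

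Fbn1 (ENSMUSG00000027204, chromosome 2, 125300594 to 125507993, minus strand) encodes fibrillin-1, the backbone of the microfibrils on which elastin is laid. It had 405 and 994 CPM in LOVA and 394 and 863 CPM in NTC, against 35.5 and 206 CPM in PTC. Though the groups did not overlap, Fbn1 did not pass the test in either comparison with PTC. NTC minus PTC was 2.38 (SE 0.88, interval 0.25 to 4.51, adjusted p = 0.0790), and LOVA minus PTC was 2.54 (SE 0.89, interval 0.39 to 4.68, adjusted p = 0.0720). When scaled to the fibroblast reference genes, these turned to -0.26 and -0.0869, against medians of -3.39 and -3.30 over all genes tested. The difference of LOVA from NTC was 0.16, with an interval of -1.87 to 2.18. The opposite-strand gene Gm9913, which overlaps an exon of Fbn1, had 75 counts over all libraries.

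Counts of Fbn1 per count of Loxl1 were 3.54 and 4.27 in LOVA and 2.62 and 3.55 in NTC, against 7.65 and 8.38 in PTC. Both PTC libraries lay above the 4 others. Of 19 other elastic fibre and microfibril genes, 15 rose and none fell in NTC over PTC, and likewise 15 in LOVA over PTC. Their medians were 2.60 and 2.51. Over all genes tested, 21.5% were called higher in NTC over PTC and 19.8% in LOVA over PTC. Lox, the founding lysyl oxidase, rose by 3.56 in NTC over PTC (SE 0.85, adjusted p = 0.0250). Fbln2, a fibulin, and Loxl2, another lysyl oxidase, rose by 3.03 and 2.48 (adjusted p = 0.0348 and 0.0389). Fbn2, the second fibrillin, was like Fbn1 in not passing the test, at 1.57 (adjusted p = 0.0981). Elastin itself, Eln, was not called either, at 1.61 (adjusted p = 0.127).

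**Figure D3:**
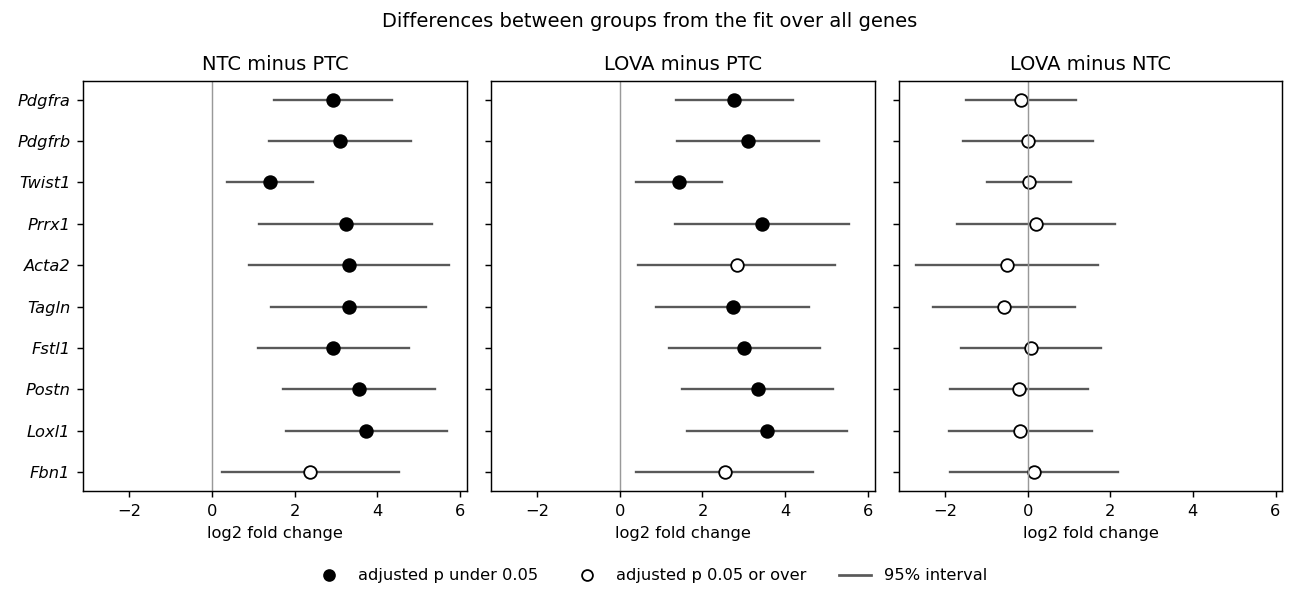
Log2 fold changes of the 10 genes with 95% intervals (x axis) for NTC minus PTC, LOVA minus PTC and LOVA minus NTC, from the edgeR fit over all genes. Filled points have an adjusted p under 0.05; 9 are filled in the first panel, 8 in the second and none in the third, where every interval spans 0.

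The order of levels per kilobase differed between the groups below the top place. Twist1 ranked 10 in LOVA at 19.4 CPM per kb and 9 in NTC at 19.0, but 4 in PTC at 7.16. Loxl1 ranked 4 in LOVA at 52.7 CPM per kb and 3 in NTC at 59.6, but 8 in PTC at 4.43. In PTC, every gene from Postn down overlapped its neighbour in the order, and in LOVA likewise. In NTC, Postn lay above Loxl1 and Pdgfrb above Twist1 with no overlap, and the other neighbours below Fstl1 overlapped. The places between Postn and Prrx1 in PTC, from 11.3 down to 1.99 CPM per kb, are therefore not well separated.

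Because the share of counts in fibroblast genes differed between groups, the counts of each gene were also set against the counts of the 12 fibroblast reference genes. These ratios have no test, and they were chosen with the CPM results known. Scaled this way, the NTC libraries lay above the PTC libraries for 7 of the 10 genes and below for 2, while 3.39% of all genes tested lay above and 84.7% below. Some other lists also held more genes above than that share. Of the 11 other matricellular genes, 4 lay above and 2 below. For the 19 other elastic fibre genes it was 4 and 6, and for the 16 other mesenchymal factors 5 and 5. The 16 other contractile genes had 0 above and 9 below. Of the 12 reference genes, 5 lay above and 4 below, but they form the scale, so genes on both sides follow by construction. Most of all genes tested lay below since the reference genes themselves were several times lower in PTC.

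Loxl1 had 10.7 and 10.7 counts per 1000 reference counts in LOVA and 12.6 and 11.6 in NTC, against 5.38 and 5.65 in PTC. Prrx1 had 13.5 and 15.5 in LOVA and 13.4 and 12.3 in NTC, against 7.20 and 8.72 in PTC. Postn had 53.4 and 64.6 in LOVA and 76.2 and 66.0 in NTC, against 45.3 and 36.1 in PTC. For these 3 genes the PTC libraries remained the lowest after scaling, and the NTC mean was 2.19, 1.61 and 1.75 times the PTC mean for Loxl1, Prrx1 and Postn, in place of the 13.3-fold, 9.42-fold and 11.7-fold of the CPM fit. Pdgfrb, Acta2, Tagln and Fstl1 were the other genes with both NTC libraries above both PTC libraries.

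Twist1 ran the other way, with 2.28 and 1.77 counts per 1000 reference counts in LOVA and 2.16 and 1.72 in NTC, against 8.14 and 3.75 in PTC. Fbn1 had 37.8 and 45.5 in LOVA and 33.0 and 41.0 in NTC, against 41.2 and 47.3 in PTC, so PTC lay just above NTC and overlapped LOVA. Pdgfra had 17.9 and 19.9 in LOVA and 21.03 and 21.4 in NTC, against 31.6 and 14.8 in PTC, where the 2 PTC libraries lay on either side of the others. When the reference genes set the library scale in the edgeR fit, no gene of the 10 was called. The NTC minus PTC values then ran from -1.61 for Twist1 (SE 1.19) to 1.13 for Loxl1 (SE 1.20), and Pdgfra and Fbn1 were also below 0. This scaling moved the median of all genes tested to -3.39, and it called 42 genes higher and 11225 lower in NTC, against 3472 and 2086 under TMM. Scaling to the germ cell markers moved the median of all genes to 1.02 and called 4607 higher and 35 lower, and all 10 genes were then called higher, Fbn1 included.

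The LOVA libraries lay above the PTC libraries on this scale for 6 of the 10 genes and below for 1, Twist1, against 3.0% and 85.2% of all genes tested. Between LOVA and NTC, 2 genes lay higher in LOVA (Prrx1 and Fstl1) and 5 lower (Pdgfra, Acta2, Tagln, Postn and Loxl1). Of all genes tested, 6.41% lay higher and 6.29% lower. The 12 reference genes had 3 higher and 4 lower, so such shifts were not particular to the 10 genes. As the reference genes form the scale, genes on both sides of it follow by construction. Among the 10 genes the contractile pair stood farthest apart. Acta2 had 3.98 and 4.50 counts per 1000 reference counts in LOVA, against 5.89 and 6.13 in NTC, and Tagln had 4.24 and 4.03 in LOVA, against 6.67 and 5.65 in NTC. The ratio of the LOVA mean to the NTC mean was 0.706 for Acta2 and 0.671 for Tagln. In the fit scaled to the reference genes, these differences were -0.50 (SE 1.16) and -0.57 (SE 1.17), and neither was called. The SEs of that comparison were alike for all 10 genes, from 1.15 for Twist1 to 1.24 for Fstl1. They therefore do not measure the spread of the Acta2 and Tagln ratios alone.

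**Figure D4:**
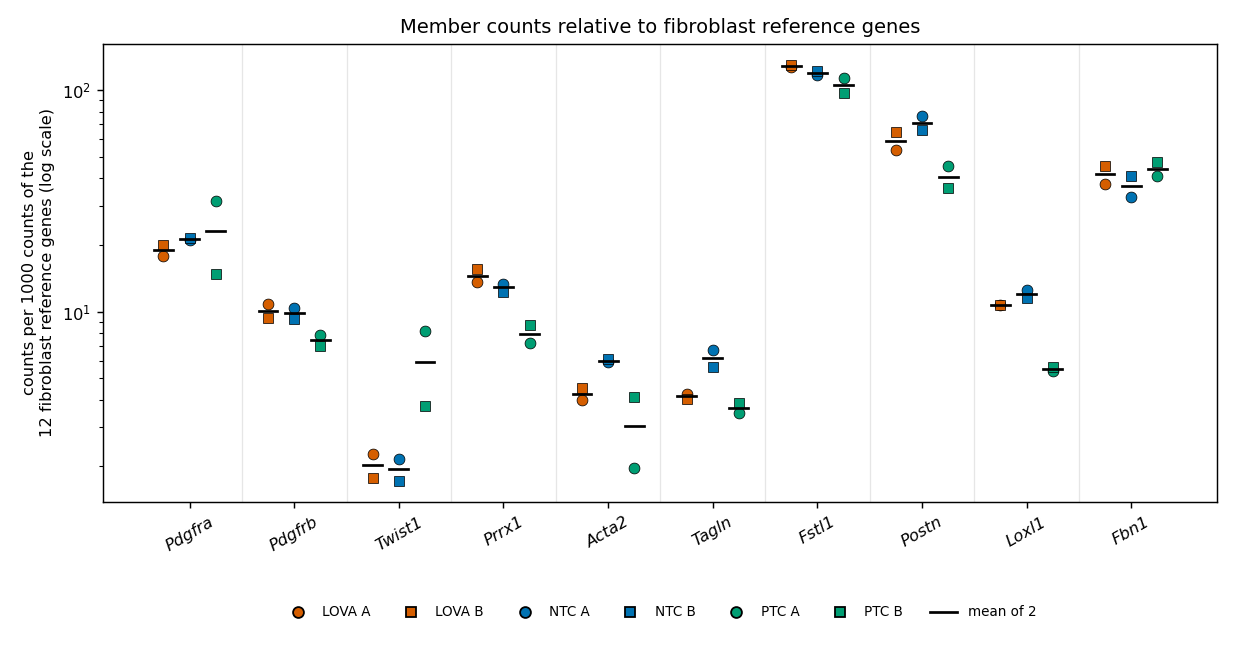
Counts of each of the 10 genes per 1000 counts of the 12 fibroblast reference genes (log scale) in the 2 libraries of LOVA, NTC and PTC, circles for A and squares for B; black bars are means of 2 libraries. Acta2 and Tagln lie lower in LOVA than in NTC, and Twist1 lies higher in PTC than in both other groups, whereas its CPM is lower in PTC. On this scale 84.7% of all genes tested lie higher in PTC than in NTC.

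Of the other 16 contractile genes, 3 shared that order between LOVA and NTC on the reference scale. Their LOVA to NTC ratios were 0.602 for Actg2, 0.525 for Cnn1, which encodes calponin, and 0.607 for Myh11. Cnn1 rests on 11 and 12 counts in LOVA and 21 and 29 counts in NTC. Synpo2 and Vcl, which encode a Z-disc protein and vinculin, lay higher in LOVA, at 1.47 and 1.18, and the other 11 overlapped. Among the other matricellular genes 4 of 11 lay lower in LOVA and none higher, and among the other elastic fibre genes 5 of 19 lay lower and 3 higher.

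Markers of macrophages differed in level between LOVA and NTC, though none passed the test. The 10 markers took 0.0412% and 0.0488% of the counts in LOVA, against 0.186% and 0.232% in NTC, with a median log2 fold change of -2.21. In PTC they took 0.0272% and 0.0232%, and 10 of the 10 rose in NTC over PTC and 2 in LOVA over PTC. Lyz2, the lysozyme of myeloid cells, averaged 385 CPM in LOVA, 1810 CPM in NTC and 187 CPM in PTC. None of the 10 markers was at 0, and their part in the values of the fibroblast genes was not tested. Sertoli, Leydig and endothelial markers took at most 0.00350%, 0.000774% and 0.00335% of the counts of any library, and Fshr, a receptor of Sertoli cells, had no count.

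The 5 protein-coding genes outside the lists whose levels were most like the mean of the 10 were Ecm1, Gja1, Zfp608, Lmna and Svep1. Their Pearson r with the mean standardised log2 CPM of the 10 genes was between 0.99937 and 0.99988 over the 6 libraries. Ecm1 and Svep1 encode secreted matrix proteins, Gja1 the gap junction protein connexin 43, and Lmna the A-type lamins. Among the 10273 genes compared, 1567 had an r over 0.95, so the 6 libraries separate few patterns and many genes share a high r. Of 18 close relatives of the 10 genes in sequence, 15 could be tested. Of these, 10 rose in NTC over PTC and 9 in LOVA over PTC, and none fell. Over all genes tested, 21.5% and 19.8% were called higher. Per fibroblast reference count, 3 of the 15 lay above PTC in each comparison, with 7 below in NTC and 8 below in LOVA. The shares of all genes tested were 3.39% above and 84.7% below in NTC, and 3.0% and 85.2% in LOVA. The 10 genes had an r of 0.988 (Fbn1) to 0.998 (Fstl1) with their own mean, in which each takes part.

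Since the 10 genes moved together, promoters are shown for Acta2 and Postn, the contractile and the matricellular marker of myofibroblasts, and for Twist1, which had the smallest change on the CPM scale and the largest, in the other direction, when scaled to the fibroblast reference genes. RefSeq windows of GRCm38.p6 (250 bases before to 50 after the start) were used for 7 of the 10 genes. These were Pdgfra, Twist1, Prrx1, Acta2, Fstl1, Postn and Fbn1. No window was found for Tagln and Loxl1, and Pdgfrb was left out of the search. The windows of the 7 genes were searched on both strands. The motifs were the CArG box bound by SRF, the CArG box with 1 other letter allowed and TATANA. These occur in 1.63%, 21.12% and 24.67% of 32817 mouse windows. The E-box CANNTG and GGAATG were searched as well, and occur in 72.32% and 14.66%. Capitals mark matches to the CArG and TATANA motifs only, and a match is a description of the letters only.
Acta2 (chr19:34255324-34255623, minus strand): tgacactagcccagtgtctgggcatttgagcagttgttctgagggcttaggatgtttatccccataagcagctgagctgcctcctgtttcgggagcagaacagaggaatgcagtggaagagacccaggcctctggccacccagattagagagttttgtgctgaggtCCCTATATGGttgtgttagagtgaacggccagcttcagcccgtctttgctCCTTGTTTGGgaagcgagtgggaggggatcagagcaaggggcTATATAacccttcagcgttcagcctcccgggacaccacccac
Postn (chr3:54360857-54361156, plus strand, the second of 2 windows): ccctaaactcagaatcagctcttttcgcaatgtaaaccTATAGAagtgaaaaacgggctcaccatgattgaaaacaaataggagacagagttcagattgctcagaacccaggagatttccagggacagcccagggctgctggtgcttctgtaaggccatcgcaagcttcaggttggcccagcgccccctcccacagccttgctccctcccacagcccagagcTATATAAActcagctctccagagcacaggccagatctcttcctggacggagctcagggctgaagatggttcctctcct
Twist1 (chr12:33957421-33957720, plus strand): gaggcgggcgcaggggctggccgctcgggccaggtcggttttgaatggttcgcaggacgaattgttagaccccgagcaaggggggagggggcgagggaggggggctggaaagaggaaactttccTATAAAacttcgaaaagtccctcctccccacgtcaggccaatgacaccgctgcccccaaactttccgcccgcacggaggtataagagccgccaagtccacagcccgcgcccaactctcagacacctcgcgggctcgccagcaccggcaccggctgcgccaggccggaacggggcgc

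Acta2 held 2 matches to the CArG box with 1 other letter, starting 84 and 34 bases before the RefSeq start, and a TATANA match 8 bases after it. No window of the 7 genes held the strict CArG box. Postn held TATANA matches at 212, 28 and 26 bases before the start, the last pair overlapping. Twist1 held 1 TATANA match 126 bases before the start, and Pdgfra, Prrx1, Fstl1 and Fbn1 held no CArG or TATANA match. E-boxes were found in the windows of Pdgfra, Acta2 and Fbn1, and GGAATG in those of Prrx1 and Acta2. TATANA was the one motif of these in all 3 windows printed.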

How the data were processed

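RNA of 6 libraries, 2 per group, was measured with strand-specific paired-end libraries, per the labels' protocols. The authors deposited 1 table of gene counts, whole and not normalized, under Ensembl identifiers. The submitters' processing notes name Trimmomatic, Bowtie2, RSEM and DESeq2 and the build mm10, with no version or role. Whether the deposited counts are rounded RSEM estimates is not given in the sources used here. Symbols, coordinates and exon lengths came from GENCODE M21, on the same build.

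The letters A and B are those of the table's columns; nothing ties the letters to the labels' replicate numbers. Genes were filtered with filterByExpr (minimum count 10), scaled by TMM, and fitted over all 6 libraries as 3 group means in edgeR 4.0.16 (robust quasi-likelihood fit, R 4.3.3), with 3 residual degrees of freedom. The Benjamini-Hochberg adjustment covered 16121 genes, and standard errors and 95% intervals came from the same fit. A count of 3 corresponded to 0.128 to 0.258 CPM, for counting error only.

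The 10 genes and the lists were chosen with earlier results of these data known. All 10 are named. Other lists are given by counts, with up to 3 called genes of highest mean CPM, or 2 where none was called. Further genes (Twist2, Prrx2, Fbn2, Eln, Tgfb1, Tgfb2, Tgfb3, Pdgfa, Srf, Mrtfa, Myocd, Myh11, Actg2, Acta1, Actc1, Cnn1, Synpo2, Vcl, Rgs5, Kcnj8 and Abcc9) were named after their values were seen. Likeness was computed over protein-coding genes with a mean of at least 10 CPM. The alternatives were DESeq2 1.42.0, limma 3.58.1 (voom), other size factors, no filter, the column letter as a block, fits of 2 groups, scaling to germ cell or fibroblast genes, and leaving out each library. The scripts were tested on simulated data. Every column of the table was used.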

Additional observations from a re-analysis of the deposited data

How the results depend on the processing

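For the 10 genes against PTC, DESeq2, RLE size factors, limma-voom, no filter on low counts and scaling to germ cell markers lost no call. Under limma-voom, no filter and germ cell scaling, Fbn1 was called in both comparisons with PTC and Acta2 in LOVA minus PTC. DESeq2 called Fbn1 in LOVA minus PTC only. Fitting only the 2 groups compared gave 1 call in NTC minus PTC and 5 in LOVA minus PTC. Leaving out 1 library at a time gave 0 to 10 calls among the 10 genes in each of these comparisons. Such a fit assumes that a lone library varies like the other groups. The medians of the 10 genes then ran from 2.46 to 4.72 in NTC minus PTC and from 2.28 to 4.51 in LOVA minus PTC. Over all genes, calls ran from 1 to 6799 in NTC minus PTC, from 0 to 6844 in LOVA minus PTC and from 0 to 2 in LOVA minus NTC. In LOVA minus NTC, DESeq2 called 120 genes, limma-voom 4 and the fit with no filter 191.

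Scaling to germ cell markers moved the median of all genes to 1.02 in NTC minus PTC and 1.01 in LOVA minus PTC, and that of the 10 genes to 4.29 and 4.10. Scaling to the fibroblast reference genes moved the median of all genes to -3.39 and -3.30 and that of the 10 genes to 0.55 and 0.36, with 0 calls among the 10 in both and 11267 and 11005 genes called over all; in LOVA minus PTC these were 25 higher and 10980 lower, and 4176 and 26 under germ cell scaling, against 3192 and 1747 under TMM. Under it, NTC minus PTC turned to -0.13 for Pdgfra, -1.61 for Twist1 and -0.26 for Fbn1, and LOVA minus PTC to -0.30, -1.55 and -0.0869. The number of fibroblasts per library is not known, so neither scaling can be said to be the right one.

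In LOVA minus NTC, small values changed sign. Pdgfrb was -0.0116 under DESeq2, -0.0122 under RLE size factors, -0.0344 under limma-voom and -0.0239 with no filter, and Twist1 was -0.0187 under limma-voom. Without single libraries, the values ran from -0.87 to 0.32 for Pdgfra, -0.46 to 0.37 for Pdgfrb, -0.34 to 0.32 for Twist1, -0.53 to 0.70 for Prrx1 and -1.22 to 0.0048 for Acta2. They ran from -0.54 to 0.59 for Fstl1, -1.003 to 0.30 for Postn, -0.78 to 0.25 for Loxl1 and -0.63 to 0.83 for Fbn1, and from -1.12 to -0.17 for Tagln, which kept its sign. The cause of these changes was not tested.

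The labels' replicate numbers could not be matched to the columns, so only the letters A and B could serve as a paired design. The differences B minus A correlated between groups over 16121 genes (0.293 for LOVA and NTC, 0.231 for LOVA and PTC, 0.195 for NTC and PTC), but with 2 letters and no statement in the labels the libraries share only a letter. With the letter as a replicate block, 90 genes were called in LOVA minus NTC and 7746 in LOVA minus PTC, all 10 genes were called against PTC in both comparisons, and Pdgfrb in LOVA minus NTC was -0.0274.

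Depth limits the value of Acta2 in PTC A, which rests on 27 counts. The gap between the PTC libraries, up to 10.6-fold for Acta2, is in CPM, which already allows for library size. It was also 4.31-fold for Fstl1, which had 1565 and 9925 counts. The cause of this gap was not tested.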
